A study of Mus musculus with 6 samples.

Results

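The genes described here are the 10 members of the PYHIN (Ifi200) family that were followed along mouse chromosome 1: Aim2, Ifi213, Ifi209, Ifi207, Ifi204, Mndal, Ifi211, Ifi203, Ifi202b and Ifi205, in chromosomal order. They were found by their GENCODE M21 gene symbol, and all 10 were found among the 54532 genes of the deposited tables. RNA-seq was performed on 6 libraries of iBMDMs, which are bone marrow-derived macrophages of WT mice on a C57Bl/6 background that were immortalized into a cell line, 3 labelled Control and 3 labelled PGAM5 KD. Control cells carried a lentiviral control shRNA (shControl) and PGAM5 KD cells a lentiviral shRNA against Pgam5, the gene of a mitochondrial outer membrane phosphatase. All 6 libraries came from cells treated with LPS at 100 ng/ml for 4 hours, so no untreated level was measured. Each group had its own shRNA, so that an effect of PGAM5 cannot be told apart from an effect of the shRNA or a difference between the lines. Whether the replicates were separate cultures is not given, and p-values then measure the spread between these libraries, which may be technical. The family was chosen by results of this same contrast, among them the high value of Ifi202b in PGAM5 KD cells. The differences between the groups are therefore given for the members as a description. The fit over all genes included them, and whether a member passed its threshold is stated as a label, with no p-value and not as evidence.

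PYHIN proteins are innate immune proteins that bind DNA through a HIN-200 domain, and most of them also carry a PYRIN domain for contacts with other proteins. AIM2 binds double-stranded DNA in the cytosol and recruits the adaptor ASC and caspase-1 into an inflammasome, which matures IL-1β and IL-18 and opens the membrane through gasdermin D. IFI204 is a DNA sensor related to human IFI16, IFI202 has HIN domains without a PYRIN domain and can counteract AIM2, and Mndal is named for its likeness to the human myeloid nuclear differentiation antigen. Interferon raises the expression of many family members in macrophages. Ifi202b is known to differ widely in level between inbred mouse strains.

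All 10 genes lie within 680.9 kb of chromosome 1 in GRCm38, from base 173350879 to base 174031810, 8 on the minus strand and Aim2 and Ifi209 on the plus strand. A promoter window of 300 bases, 250 before and 50 after a transcription start, was present in the RefSeq table (GRCm38.p6) for 9 of the 10 members, in 11 windows. The windows were searched on both strands for the interferon-stimulated response element, GAAANNGAAA, to which interferon-activated transcription factors can bind. It was present in windows of 6 of the 9 members, Ifi213, Ifi207, Mndal, Ifi211, Ifi203 and Ifi205, whereas 3.44% of all 32851 windows of the table held it. Here and for the motifs below, members are counted over their 11 windows, while the percentages are shares of windows, so the units differ. The windows of 6 genes are printed 5′ to 3′, with the match in capitals, to show which members carry the element next to the start and how alike they are around it.
Ifi203, chr1:173942443-173942742, minus strand: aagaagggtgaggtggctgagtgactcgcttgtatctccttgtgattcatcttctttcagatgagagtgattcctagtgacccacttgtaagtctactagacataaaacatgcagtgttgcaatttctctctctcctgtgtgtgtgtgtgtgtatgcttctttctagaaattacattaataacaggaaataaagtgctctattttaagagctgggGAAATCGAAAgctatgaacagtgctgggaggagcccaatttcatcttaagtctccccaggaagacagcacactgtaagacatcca
Mndal, chr1:173880138-173880437, minus strand: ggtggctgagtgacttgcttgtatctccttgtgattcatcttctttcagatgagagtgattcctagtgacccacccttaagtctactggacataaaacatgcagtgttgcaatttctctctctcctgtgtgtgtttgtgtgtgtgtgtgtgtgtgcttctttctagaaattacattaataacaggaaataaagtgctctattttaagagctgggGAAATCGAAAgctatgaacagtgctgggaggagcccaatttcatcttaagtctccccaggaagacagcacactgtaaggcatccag
Ifi207, chr1:173741760-173742059, minus strand: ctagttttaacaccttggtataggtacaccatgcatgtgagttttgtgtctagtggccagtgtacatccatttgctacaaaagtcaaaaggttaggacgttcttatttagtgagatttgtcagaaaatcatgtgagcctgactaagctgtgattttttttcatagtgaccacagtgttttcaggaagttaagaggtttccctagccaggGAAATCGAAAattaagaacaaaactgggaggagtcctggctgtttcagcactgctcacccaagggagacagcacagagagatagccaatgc
Ifi213, chr1:173599223-173599522, minus strand: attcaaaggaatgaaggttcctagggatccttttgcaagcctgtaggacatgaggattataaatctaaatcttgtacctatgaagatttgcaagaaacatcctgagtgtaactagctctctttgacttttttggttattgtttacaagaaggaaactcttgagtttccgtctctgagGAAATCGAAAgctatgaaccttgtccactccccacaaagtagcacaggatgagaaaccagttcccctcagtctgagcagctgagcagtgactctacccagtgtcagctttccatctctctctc
Ifi202b, chr1:173982795-173983094, minus strand: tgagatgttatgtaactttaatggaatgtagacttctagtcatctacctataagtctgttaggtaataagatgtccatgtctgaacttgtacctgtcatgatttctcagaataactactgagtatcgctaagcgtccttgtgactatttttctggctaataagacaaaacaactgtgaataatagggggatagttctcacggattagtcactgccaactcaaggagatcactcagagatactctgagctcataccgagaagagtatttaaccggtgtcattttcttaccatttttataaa
Aim2, chr1:173420354-173420653, plus strand: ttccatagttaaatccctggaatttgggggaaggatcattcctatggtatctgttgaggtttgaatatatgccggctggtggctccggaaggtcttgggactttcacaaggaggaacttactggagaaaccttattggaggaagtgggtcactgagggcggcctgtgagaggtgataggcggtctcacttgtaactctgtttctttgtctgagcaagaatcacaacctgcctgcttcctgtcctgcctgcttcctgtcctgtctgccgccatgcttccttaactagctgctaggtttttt

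In Ifi203, Mndal and Ifi207 the match began 35, 36 and 41 bases before the start, and in Ifi213 it began 73 bases before it. The same 10 letters, GAAATCGAAA, stood in all 4 of these windows, and Ifi211 carried GAAATTGAAA at 37 bases before its start. Ifi205 had a match at 134 bases before the start and another on the minus strand at 23 bases after it. A second Mndal window, from 173879909 to 173880208, held a match on its minus strand at 54 bases before the start. The windows of Mndal and Ifi203 shared an identical run of 139 bases, and those of Ifi211 and Ifi205 a run of 45 bases, so the members are not independent cases of the element. The windows of Aim2, Ifi209 and Ifi202b did not hold these letters. The gamma-activated site, TTCNNNGAA, was present in 1 member, Ifi202b, at 148 bases before the start, and in 8.30% of all windows. The NF-kB letters, GGGNNNNTCC, were present in windows of Ifi209, Mndal and Ifi203 (19.2% of all windows), and the ETS and IRF composite element, GGAANNGAAA, in none of the 9 members (2.72% of all windows). TATAAA was present in windows of 4 members and in 13.6% of all windows, and in Ifi202b its matches on the 2 strands overlapped. No match of another pair of motifs overlapped in the members' windows. A match describes the letters of a window and was not tested as a binding site.

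Levels are given in FPKM, fragments scaled to exon length and to the depth of the library, which can be compared between genes of different length. Between 18163463 and 24388908 fragments per library were recovered from the deposited values, and for 1 kb of exon a single fragment stood for between 0.0410 and 0.0551 FPKM. Differences are log2 fold changes of PGAM5 KD against Control on the log2(FPKM + 1) scale, which understates the difference of genes with low FPKM. In bulk libraries, fewer cells of a type and less RNA per cell cannot be told apart. The fold changes were fitted with limma for the 10540 genes with a mean of at least 1 FPKM. Pgam5 itself measured 17.1, 13.0 and 13.4 FPKM across Control and 4.33, 5.75 and 4.53 FPKM across PGAM5 KD libraries. It was lower in each PGAM5 KD library than in any Control library (log2 fold change -1.40, standard error 0.13, limma's adjusted p = 0.000358). Among the genes tested as a whole, 1771 passed an adjusted p-value of 0.05 with a higher level in PGAM5 KD cells and 1575 with a lower one, so 52.9% of the calls were higher. With the values scaled to TPM the calls were 1088 higher and 2282 lower, so 32.3% were higher.

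Of the 10 members, 7 had a mean of at least 1 FPKM, and 5 of these were past an adjusted p-value of 0.05 with a higher level in PGAM5 KD cells, Ifi207, Ifi204, Mndal, Ifi203 and Ifi202b. Over all genes tested, 16.8% were higher and 14.9% were lower by the same rule. None of the members was lower by it, and Aim2 and Ifi213 were not past it. The log2 fold change was above 1 in 4 of the 5, against 0.787% of all genes tested, or 83 genes. This count of genes was 154 with a pseudocount of 0.1 and 170 with voom, with the same number of members, while with a mean of at least 5 FPKM it was 49 and Ifi202b was the 1 member among them. All PGAM5 KD libraries exceeded all Control libraries in 7 of the 10 members, Ifi209 and Ifi211 included, and in 5 of the 7 tested ones, against 24.2% of all genes tested. Because the family was chosen by this contrast, these counts describe the members and nothing is read from the difference to all genes. In addition, Ifi204 and Ifi203 had a mean under 1 FPKM in Control cells and passed the filter only through their PGAM5 KD libraries. The median log2 fold change over the 7 members, 1.10, is that of Ifi204 itself, and over the 5 members with a Control mean of at least 1 FPKM it was 0.30. It was 0.013 over all genes tested.

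**Figure D1:**
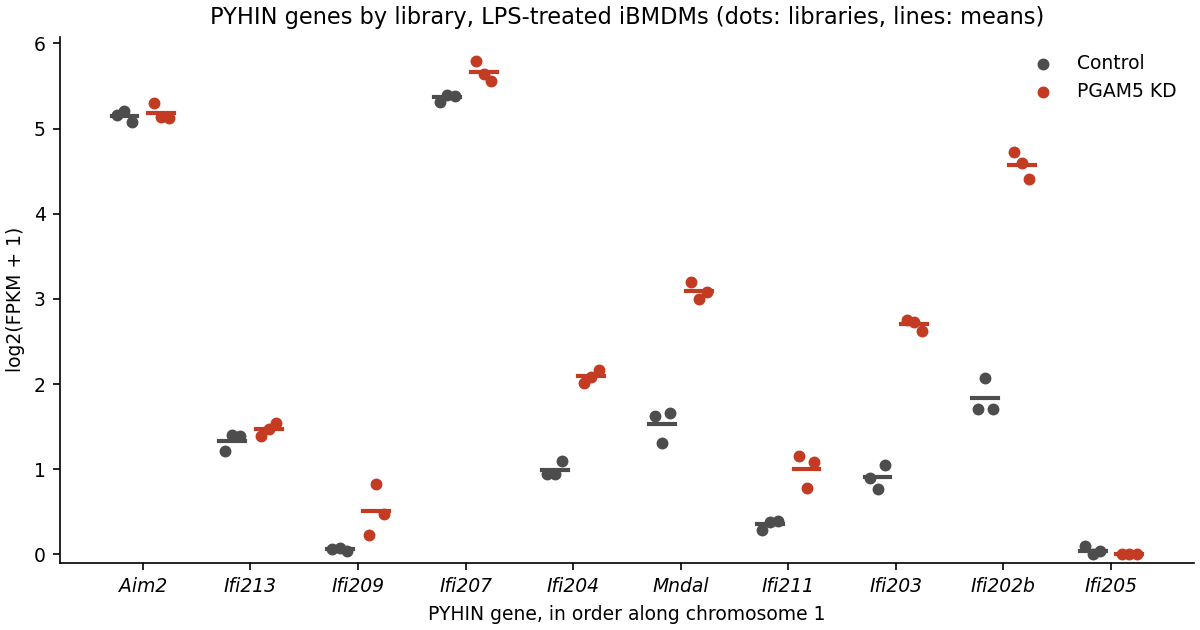
Level of each PYHIN gene in each library, as log2(FPKM + 1) on the vertical axis, with the genes in chromosomal order on the horizontal axis, Control in grey, PGAM5 KD in red, dots for libraries and lines for group means. Ifi207 and Aim2 are highest in both groups, while the groups are furthest apart in Ifi202b, with 2.26 to 3.21 FPKM in Control and 20.2 to 25.6 FPKM in PGAM5 KD libraries.

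Ifi202b (ENSMUSG00000026535), on the minus strand from 173962568 to 173982744, measured 2.27, 3.21 and 2.26 FPKM across Control and 25.6, 23.1 and 20.2 FPKM across PGAM5 KD libraries. The groups lay far apart, with 20.2 FPKM in the lowest PGAM5 KD library and 3.21 FPKM in the highest Control library. Behind the values were 70 to 110 fragments per Control library and 712 to 953 per PGAM5 KD library. The mean was 2.58 ± 0.546 FPKM (Control) and 22.9 ± 2.69 FPKM (PGAM5 KD; SD, n = 3 each), a ratio of 8.88 and a log2 fold change of 2.75 (standard error 0.12). In the transcript sequences, no stretch of 100 bases of Ifi202b was identical to another gene. Its best-scoring alignment within the cluster, to Ifi204, was 73.1% identical over 1247 bases.

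Ifi203 (ENSMUSG00000039997) lies next to it on the minus strand, from 173920407 to 173942672. It measured 0.862, 0.702 and 1.07 FPKM across Control and 5.72, 5.61 and 5.17 FPKM across PGAM5 KD libraries, with no overlap between the groups. Its ratio of means was 6.27 and its log2 fold change 1.80 (standard error 0.10). Mndal (ENSMUSG00000090272) spans from 173849126 to 173942491 on the same strand, so that its annotated span covers Ifi211 and most of Ifi203. It measured 2.09, 1.48 and 2.16 FPKM across Control and 8.19, 7.01 and 7.44 FPKM across PGAM5 KD libraries. The groups did not overlap, with a ratio of means of 3.95 and a log2 fold change of 1.56 (standard error 0.11). Exons of Mndal and Ifi203 shared 37 bases, which is 1.02% of the exon bases of Mndal and 0.552% of those of Ifi203, and Mndal shared a further 118 bases with the pseudogene Gm38050, which was listed at 0.

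Ifi204 (ENSMUSG00000073489), from 173747293 to 173766943 on the minus strand, measured 0.928, 0.918 and 1.14 FPKM across Control and 3.04, 3.25 and 3.49 FPKM across PGAM5 KD libraries. All PGAM5 KD libraries were above the Control libraries, by a ratio of means of 3.28 and a log2 fold change of 1.10 (standard error 0.10). Its longest coding transcript was 96.9% identical to that of Ifi211 over 1363 bases, and 10.7% of its stretches of 100 bases occurred in another gene. Ifi207 (ENSMUSG00000073490), from 173723427 to 173741747 on the minus strand, had the highest level of the family. It measured 38.8, 41.1 and 40.9 FPKM across Control and 54.3, 48.8 and 46.0 FPKM across PGAM5 KD libraries. The groups were close but did not overlap, at a ratio of means of 1.24 and a log2 fold change of 0.30 (standard error 0.06).

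Aim2 (ENSMUSG00000037860), the inflammasome sensor at the start of the cluster, spans from 173350879 to 173466040 on the plus strand. It measured 34.7, 35.9 and 32.9 FPKM across Control and 38.5, 34.1 and 34.0 FPKM across PGAM5 KD libraries. The groups overlapped, and the log2 fold change was 0.04 (standard error 0.06) but -0.04 with the values scaled to TPM and -0.02 without PGAM5 KD replicate 1. Between 2169 and 2961 fragments per library lay behind these values, and none of the stretches of 100 bases of Aim2 occurred in another gene. Ifi213 (ENSMUSG00000073491), from 173566283 to 173599274 on the minus strand, measured 1.33, 1.64 and 1.62 FPKM across Control and 1.62, 1.78 and 1.91 FPKM across PGAM5 KD libraries. Its groups overlapped as well, and the log2 fold change was 0.13 (standard error 0.10).

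The other 3 members were below a mean of 1 FPKM and were not fitted with the rest. Ifi211 (ENSMUSG00000026536), from 173896345 to 173913046 on the minus strand, measured 0.216, 0.305 and 0.316 FPKM across Control and 1.22, 0.709 and 1.13 FPKM across PGAM5 KD libraries. This rests on 29 fragments over the 3 Control libraries and 120 over the 3 PGAM5 KD libraries, a ratio of 3.71 per fragment sequenced (95% exact binomial interval from 2.46 to 5.78, counting error only). More than any other member, Ifi211 shared sequence within the family, with 56.9% of its stretches of 100 bases in another gene and 37.2% in Ifi205. Ifi209 (ENSMUSG00000043263), from 173630917 to 173647928 on the plus strand, had 3, 4 and 2 fragments in the Control libraries and 13, 50 and 34 fragments in the PGAM5 KD libraries. These are 0.0289 to 0.0559 FPKM in Control and 0.167 to 0.776 FPKM in PGAM5 KD libraries. The groups did not overlap, but the PGAM5 KD libraries were widely spread. The ratio per fragment sequenced was 9.67 (95% exact binomial interval from 4.89 to 21.8, counting error only). Ifi205 (ENSMUSG00000054203), from 174011998 to 174031810 on the minus strand, had 5, 0 and 2 fragments in the Control libraries and none in the PGAM5 KD libraries. A count of 0 allows up to 3 fragments, or between 0.0294 and 0.0395 FPKM in these libraries. Since a Control library was also at 0, the groups overlapped, and no direction is given for Ifi205.

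Along the chromosome the 7 fitted members had log2 fold changes in the order of their positions, from Aim2 (0.04) through Ifi213 (0.13), Ifi207 (0.30), Ifi204 (1.10), Mndal (1.56) and Ifi203 (1.80) to Ifi202b (2.75). This order was noticed after the values were seen, and no test of it was made. It held in each of the 13 alternative settings that kept all 7 genes, among them voom, TPM and each fit without 1 library. The 5 members past the threshold lie within 259.3 kb, with Ifi211 between Mndal and Ifi203. Beyond Ifi202b the order ended, since the pseudogene Gm18445 measured 2.84, 3.20 and 4.37 FPKM across Control and 6.82, 6.69 and 6.30 FPKM across PGAM5 KD libraries (log2 fold change 0.78, standard error 0.12), and Ifi205 was at or near 0. Genes left out by the filter broke the order as well. In the fit with no filter, Ifi209, between Ifi213 and Ifi207, was at 0.45 (standard error 0.15). Ifi203-ps, between Ifi204 and Mndal, was at 0.51 (standard error 0.05), and Ifi211, between Mndal and Ifi203, at 0.65 (standard error 0.12). The scale understates these genes, whose mean was under 1 FPKM. By ratio of means Ifi209 was at 10.2, above Ifi202b (8.88), on 9 fragments over the Control libraries. Ifi203-ps was at 5.90, above Ifi204 (3.28) and Mndal (3.95). Ifi211 was at 3.65, below Mndal and Ifi203 (6.27), but its fragment interval (2.46 to 5.78) held the fragment ratio of Mndal (3.98).

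**Figure D2:**
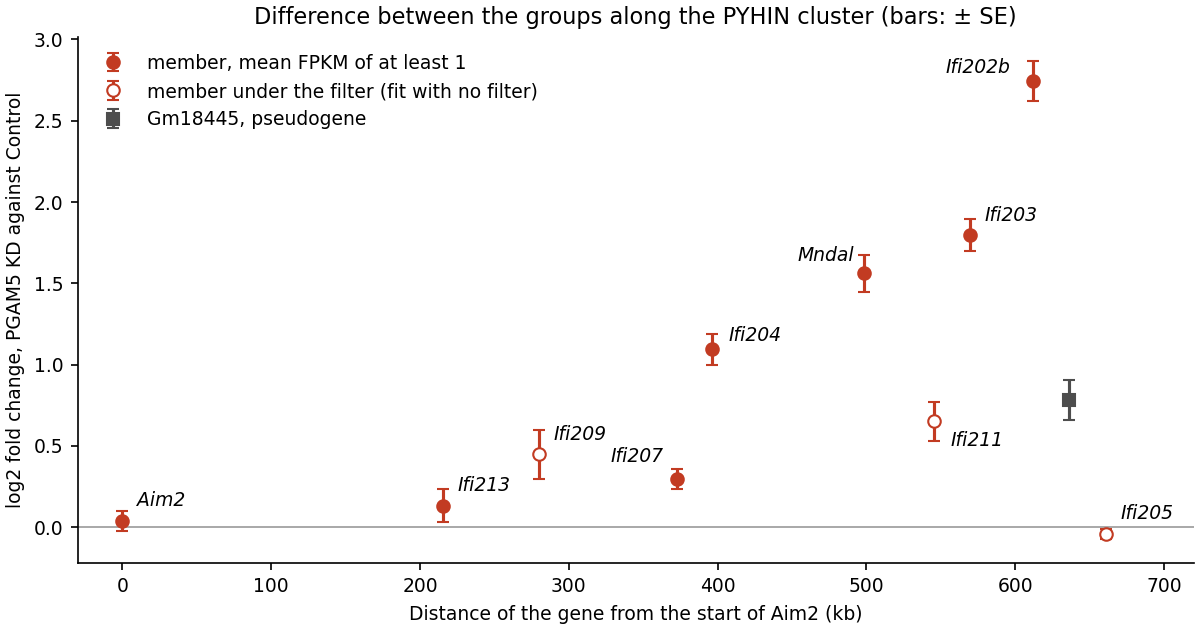
Log2 fold change of PGAM5 KD against Control (vertical axis, bars ± standard error) against the distance of each gene from the start of Aim2 in kb (horizontal axis), filled for the 7 fitted members, open for the 3 members under 1 FPKM, and a square for the pseudogene Gm18445. The filled circles go from 0.04 at Aim2 to 2.75 at Ifi202b, 611.7 kb away.

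Outside the 10 members the cluster held 11 other annotated genes, 6 of the 21 genes in the cluster being pseudogenes. Of these 11, 5 had no fragment in any library, 6 had some, and Gm18445 was the 1 that reached a mean of 1 FPKM. Its transcript was 91.3% identical to Ifi207 over 608 bases and 90.9% identical to Ifi204 over 604 bases. Of the others, the pseudogene Gm7871 had at most 5 fragments in a library. Ifi206, Ifi208 and Ifi214 had no fragment in Control cells, and at most 2, 9 and 4 fragments in a PGAM5 KD library. The pseudogene Ifi203-ps had 5, 3 and 6 fragments in the Control libraries and 33, 25 and 35 in the PGAM5 KD libraries, and its transcript was 97.8% identical to Ifi203 over 671 bases. Of the 3 nearest tested genes on each side, Fh1 (0.19, adjusted p = 0.0213) was higher and Chml (-0.33, adjusted p = 0.0425) was lower in limma's test, while Tagln2 (0.04) and Exo1 (-0.16) did not pass. The calls of Fh1 and Chml were lost in 4 and 7 of the alternative settings, among them the fits without PGAM5 KD replicate 2 or 3 for both and, for Chml, the fit without any 1 of the Control replicates. Slamf9, at means of 0.419 FPKM in Control and 1.68 FPKM in PGAM5 KD cells, and Slamf8, at 1.77 and 0.769 FPKM, passed the filter only through 1 group, so no test is given for them. The nearest of these was 760.3 kb from the cluster on the left and 1568.6 kb on the right, and positive and negative log2 fold changes were present on each side.

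Near-identical copies can trade fragments in the counting, so fragments were also summed over the family, which does not move when they trade between members. The sum does not restore fragments left uncounted because they match several genes, and whether any were is not given. In CPM, fragments scaled to the depth of the library, the 10 members together took 284.9, 296.9 and 289.8 in the 3 Control libraries and 456.7, 416.3 and 401.2 in the 3 PGAM5 KD libraries. The sums did not overlap, and their means had a ratio of 1.46. With Ifi206, Ifi208, Ifi214, Ifi203-ps and Gm18445 added, the latter chosen after the values were seen, the ratio was 1.47. Aim2 and Ifi207 held most of the fragments in both groups, 258.5 ± 6.65 CPM in Control and 294.5 ± 23.2 in PGAM5 KD cells (SD, n = 3). The 8 other members, a group formed after the values were seen, had 32.0 ± 2.43 CPM in Control and 130.3 ± 5.69 in PGAM5 KD cells, a ratio of 4.07. Mndal, Ifi203 and Ifi211, which lie within the same stretch, together had 13.3 ± 2.51 and 66.1 ± 3.63 CPM, a ratio of 4.96.

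**Figure D3:**
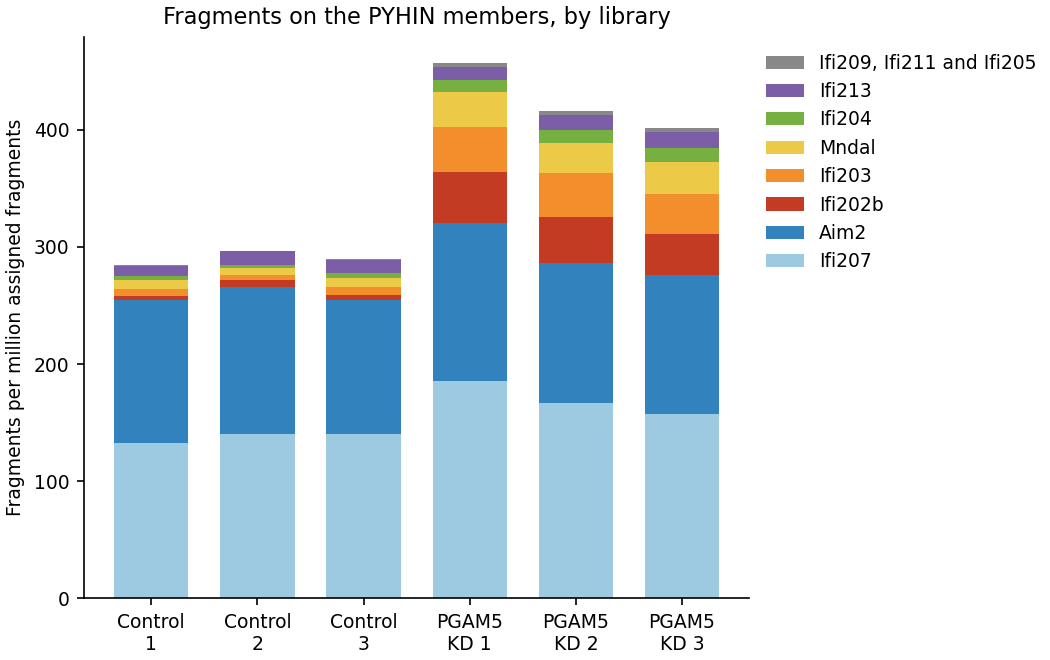
CPM of the PYHIN members, over the fragments assigned to genes (vertical axis, from 0) in each of the 6 libraries, stacked by gene. The bars reach 284.9 to 296.9 in Control and 401.2 to 456.7 in PGAM5 KD libraries, and the Ifi202b, Ifi203 and Mndal layers are thicker in each PGAM5 KD library than in each Control library.

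The make-up of the family differed accordingly. Aim2 made up 39.7% to 42.7% of the family's fragments in Control and 28.7% to 29.6% in PGAM5 KD libraries. Ifi207 made up 46.6% to 48.3% and 39.3% to 40.7%. Ifi202b went from 1.505% ± 0.287 in Control to 9.15% ± 0.533 in PGAM5 KD cells, Ifi203 from 2.03% ± 0.445 to 8.69% ± 0.319, and Mndal from 2.39% ± 0.510 to 6.45% ± 0.312 (SD, n = 3). By level per length, the order in Control cells was Ifi207, Aim2, Ifi202b, Mndal, Ifi213, Ifi204, Ifi203, Ifi211, Ifi209 and Ifi205. The libraries of Mndal and Ifi213, of Ifi204 and Ifi203 and of Ifi209 and Ifi205 overlapped. Within each Control library Ifi204 was still above Ifi203, whereas the order of the other pairs changed between libraries. In PGAM5 KD cells the order was Ifi207, Aim2, Ifi202b, Mndal, Ifi203, Ifi204, Ifi213, Ifi211, Ifi209 and Ifi205, with overlapping libraries for Ifi211 and Ifi209. Ifi207, Aim2 and Ifi202b thus took the same ranks in both groups. Ifi203 and Ifi204 were below Ifi213 in Control and above it in PGAM5 KD libraries.

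Among the 7089 genes outside the family with a mean of at least 5 FPKM, those whose centred profile over the 6 libraries was closest to the median profile of the fitted members were Bst2, Csf3, Endod1, Cdkn1a and Smim3. Bst2, which encodes the interferon-induced antiviral protein tetherin, differed from it by a root mean square of 0.036 on the log2 scale. Its mean was 89.8 ± 4.83 FPKM in Control and 188.8 ± 8.68 FPKM with PGAM5 KD (SD, n = 3). The profiles closest to Ifi202b were those of Lyz1, Trim30a and Il1b, with root mean square differences of 0.218, 0.227 and 0.322. The group difference makes up most of these profiles, and no p-value is given for the likeness.

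Genes of the AIM2 inflammasome, of other inflammasome sensors and of pyroptosis were compared as a list of 12 genes, of which 9 were tested. At the adjusted p-value of 0.05 from limma, 7 were higher in PGAM5 KD cells, 1 was lower and 1 did not pass, with a median log2 fold change of 0.57. The shares over all genes tested, 16.8% higher and 14.9% lower with a median of 0.013, stand beside this count and those of the lists that follow. Il1b, which encodes IL-1β, rose from 6.51 ± 0.251 to 32.2 ± 1.85 FPKM (log2 fold change 2.14, adjusted p = 7.42e-06 from limma), and Il18 from 3.22 ± 0.555 to 7.52 ± 1.64 FPKM (1.01, adjusted p = 0.00335; SD, n = 3). Casp1, which encodes the protease of the inflammasome, rose from 15.1 ± 2.14 to 22.8 ± 0.984 FPKM (0.57, adjusted p = 0.00414), Casp4 by 0.75 (adjusted p = 0.00122) and Casp8 by 0.59 (adjusted p = 0.00163, all from limma). Ninj1, which encodes a protein of membrane rupture and is named as the 1 lower gene of the list, fell by 0.25 on the log2 scale (adjusted p = 0.019 from limma), a call that was lost without Control replicate 1 or without Control replicate 3. Nlrp1b had a log2 fold change of 0.24 and did not pass (adjusted p = 0.228 from limma). Gsdmd, the gene of gasdermin D, was named after its values were seen and was among the 7 higher genes. Its call was lost in 6 of the alternative settings. These were TPM, the replicate block, and the fits without Control replicate 1 or 3 or without PGAM5 KD replicate 1 or 3. Pycard, which encodes the adaptor ASC that AIM2 recruits, was named after its values were seen. It had 1, 0 and 2 fragments in the Control libraries and 0, 3 and 4 fragments in the PGAM5 KD libraries, at most 0.0435 FPKM, while 12.8% of its exon bases lay in exons of another gene.

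**Figure D4:**
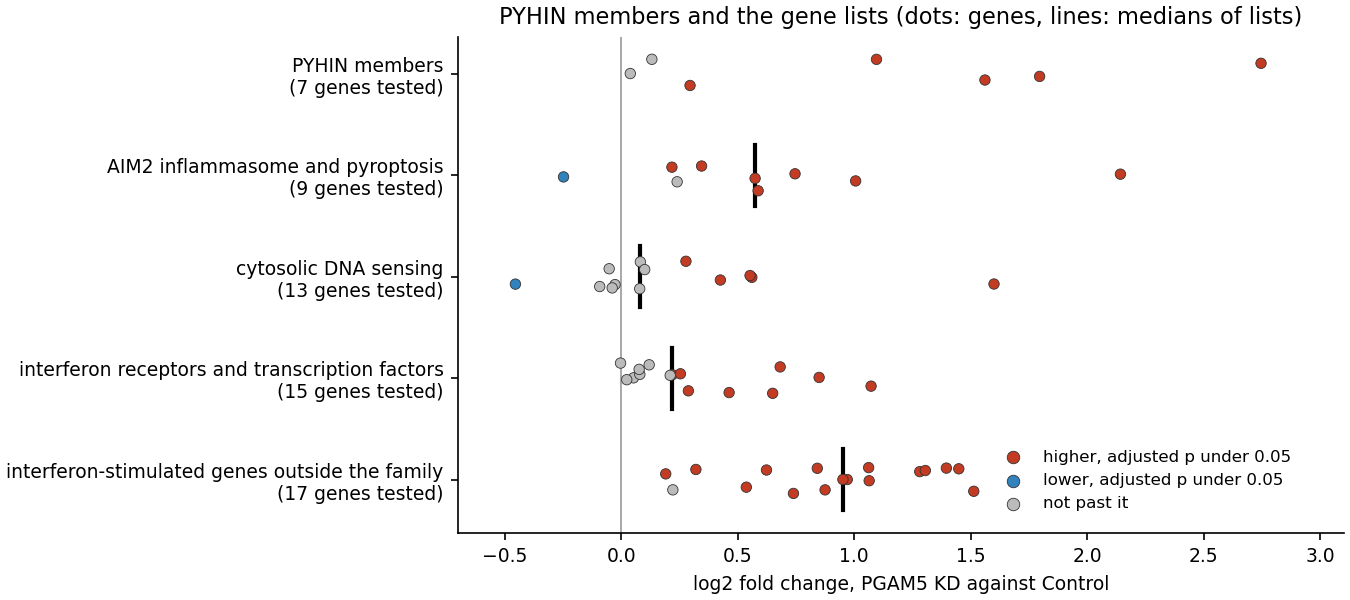
Log2 fold change of PGAM5 KD against Control (horizontal axis) for the tested genes of the family and of 4 lists (rows), coloured by whether the gene was past an adjusted p-value of 0.05 in limma's fit, with a black line at the median of each list. The family spans from 0.04 to 2.75, and the list medians are 0.57 for inflammasome genes, 0.08 for cytosolic DNA sensing, 0.22 for interferon receptors and transcription factors and 0.95 for interferon-stimulated genes.

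Of 16 genes of cytosolic DNA sensing, the pathway of cGAS and STING in which IFI204 has also been placed, 13 were tested, of which 5 were higher, 1 was lower and 7 did not pass, with a median of 0.08. Irf7, which encodes a transcription factor of interferon genes, rose by 1.60 (adjusted p = 7.42e-06), Rnaseh2c by 0.55 (adjusted p = 0.00477) and Tmem173, the gene of STING, by 0.43 (adjusted p = 0.0428, all from limma). The count of 6 was 4 with no filter, where Zbp1 and Tmem173 were lost. It was also 4 without Control replicate 2, Control replicate 3, PGAM5 KD replicate 1 or PGAM5 KD replicate 3, with the same 2 genes lost. The call of Tmem173 was lost in 7 alternative settings in all, TPM and the fit without PGAM5 KD replicate 2 included. Zbp1, at means of 0.953 FPKM in Control and 1.87 FPKM in PGAM5 KD cells, passed the filter only through the latter, so its p-value is not given. Dnase2a, which encodes a lysosomal DNase, fell by 0.45 on the log2 scale (adjusted p = 0.00461 from limma). Cgas, which encodes the DNA sensor itself, had a log2 fold change of 0.08 and did not pass (adjusted p = 0.335 from limma), nor did Ddx41 (adjusted p = 0.556). Trex1, which encodes a cytosolic DNase, was listed at 0 in every library, and all of its exon bases lie in exons of Atrip. Ifnb1, the gene of interferon β, was at 1.11 ± 0.819 FPKM in Control and 0.732 ± 0.457 FPKM with PGAM5 KD (SD, n = 3), which is below the filter.

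All 15 interferon receptor and transcription factor genes were tested, of which 8 were higher, none was lower and 7 did not pass, with a median of 0.22. Usp18, an inhibitor of interferon receptor signaling, rose by 1.07 (adjusted p = 2.45e-05), Stat2 by 0.85 (adjusted p = 0.00018), Irf8 by 0.68 (adjusted p = 0.000883) and Irf1 by 0.46 (adjusted p = 0.00888, all from limma). The receptor gene Ifngr2 (0.08, adjusted p = 0.443) and the kinase gene Jak1 (0.08, adjusted p = 0.24) did not pass. This count was 5 instead of 8 with the values scaled to TPM, and also without Control replicate 3 or without PGAM5 KD replicate 3. Of 20 interferon-stimulated genes outside the family, 17 were tested, of which 16 were higher and Cxcl10 did not pass (0.22, adjusted p = 0.0583), with a median of 0.95. Among the 16, Ifi47, at 0.755 FPKM in Control and 2.66 FPKM in PGAM5 KD cells, passed the filter only through the latter. Rsad2 (1.51), Ifit1 (1.45), Ifi44 (1.40), Mx2 (1.30) and Isg15 (1.28), all known to be induced by interferon, had the 5 largest values. The annotation lists Mx2 as a polymorphic pseudogene, and Isg15 encodes a ubiquitin-like protein. Their adjusted p-values in limma's test were between 7.42e-06 and 6.53e-05. These lists were written with the higher interferon-stimulated genes of these libraries already known, so the counts are not independent evidence of their direction.

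The libraries were also compared for markers of the cells they could hold. The macrophage markers Cd14, Cd68, Csf1r and Lyz2 were abundant, and of the 7 tested markers 4 were higher with PGAM5 KD and 3 were lower, with Mertk at 0 in every library. Summed over the macrophage list, the level was 2802 to 2894 FPKM in Control and 2526 to 2544 FPKM in PGAM5 KD libraries. Lyz2 alone was 1638 to 1698 FPKM in Control and 1239 to 1279 FPKM in PGAM5 KD libraries, and without Lyz2 the sum was 1165 to 1197 FPKM in Control and 1258 to 1287 FPKM in PGAM5 KD libraries, so the direction turned. No neutrophil, lymphocyte, dendritic cell or fibroblast marker reached a mean of 1 FPKM, and the sums of these lists did not exceed 0.159, 0.211, 0.543 and 0 FPKM in any Control library and 0.328, 0.186, 0.613 and 0.0168 FPKM in any PGAM5 KD library. The part of the macrophage markers in the family's values was not tested.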

How the data were processed

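RNA-seq of 6 libraries of LPS-treated iBMDMs was analysed, 3 Control and 3 PGAM5 KD, grouped by their sample labels. The authors deposited 1 table of FPKM per library. The submitters' processing notes name mm10, HISAT2 2.0.5 and featureCounts 1.5.0-p3, while the handling of strand and of reads that match several genes is not given in the sources used here. Fragments of genes with near-identical copies, such as Ifi211, Ifi209, Ifi204 and Ifi205, are therefore uncertain. The deposited FPKM carry no scaling beyond depth, and they summed to 304393 to 304889 in Control and 317936 to 324298 in PGAM5 KD libraries.

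Names, coordinates and exon lengths came from GENCODE M21 (GRCm38), which held 54495 of 54532 genes. FPKM times exon length gave whole fragments within 0.01 for 96.8% to 97.1% of values under 1000 fragments, from which depths were recovered. Replicates differed by more than sampling noise (chi-square of 4.68 to 7.79 per degree of freedom). Genes averaging 1 FPKM or more were fitted as log2(FPKM + 1) with limma 3.58.1 in R 4.3.3 (trended variance, two-sided, with p-values adjusted by Benjamini-Hochberg over 10540 genes), and the fit was tested on simulated data. An exact permutation test of 3 libraries against 3 cannot go below p = 0.1 and was not used. Count models were not the main test, since the deposited unit is FPKM. Sequence likeness was computed from GENCODE transcripts with identical stretches of 100 bases and blastn 2.17.0, and promoters and motifs came from the RefSeq table. Tables and figures used Python 3.11.15, pandas 2.3.3, scipy 1.17.1 and matplotlib 3.10.9.

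The members and lists were chosen with earlier results of these data known. Named genes were all members, the other genes of the cluster with a fragment in any library and the 3 nearest tested genes on each side, up to 5 genes with the largest change past the threshold and up to 2 abundant genes that did not pass in each list, the nearest profiles, and genes said to be chosen after their values were seen, Ninj1 among them. A gene that the rule names in the list of interferon receptors and transcription factors is not reported here. Alternatives were a pseudocount of 0.1, no filter, a mean FPKM of at least 5, TPM, quantile normalization, median centring, a replicate block, voom on recovered fragments, leaving out each library in turn, and the family sum with the 4 other PYHIN genes and, chosen after seeing the data, with Gm18445 as well.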

Additional observations from a re-analysis of the deposited data

How the results depend on the processing

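Under the alternatives 241 of 264 values kept their size or their side of the threshold, 23 moved, and none changed direction among values past the threshold. With a filter at a mean of 5 FPKM, 2 members remained past the threshold, Ifi207 and Ifi202b, because the others of the 5 were not in the fit, and 5 interferon receptor and transcription factor genes. With no filter, 6 members passed, Ifi211 being added, and 1 of the other PYHIN genes, Ifi203-ps. Scaled to TPM, the genes called higher over all genes were 1088, and the interferon receptor and transcription factor genes called were 5. The replicate block also gave 5 of these genes, and it left the members past the threshold at 5. The replicate numbers did not pair the libraries (correlations of deviations -0.020, 0.016 and -0.052). Leaving out each library in turn gave between 5 and 7 of these genes, lowest without Control replicate 3 or PGAM5 KD replicate 3, and 5 members in every fit. The log2 fold change of Ifi202b lay between 2.67 and 2.87 without 1 library, and with voom those of Ifi204, Mndal, Ifi203 and Ifi202b were 1.71, 2.00, 2.66 and 3.14, since low values are not damped by a constant of 1 FPKM. The causes of the other moves were not tested. Depth limits Ifi209, Ifi211 and Ifi205, with at most 50 fragments per library.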
